A study of Homo sapiens with 6 samples.

Results

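Histone genes were examined in HepG2 cells, an established human line derived from a liver tumor, after knockdown of PAIP1. The members were the protein-coding rows of the count table whose symbols name a gene of the HIST clusters or 1 of the replication-independent histone genes (H1F0, H1FX, H2AFJ, H2AFV, H2AFX, H2AFY, H2AFY2, H2AFZ, H3F3A and H3F3B). This gave 67 of 30987 genes, namely 57 HIST cluster genes and 10 replication-independent genes, and the rule uses symbols and gene type alone. Cells received siRNA3 against PAIP1 (siPAIP1) or a non-targeting control siRNA (Ctrl) with the same lipofection reagent, and were collected 48 h later. Each group had 3 biological replicates, giving 6 libraries of RNA selected on oligo(dT) beads and sequenced as read pairs. A single cell line and 1 siRNA were used, so an effect of that siRNA on other transcripts cannot be told apart from an effect of losing PAIP1.

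Histones package DNA: H2A, H2B, H3 and H4 form the nucleosome core, and H1 binds the DNA between cores. Genes of the HIST clusters are transcribed mainly in S phase to supply new chromatin, and their mature mRNAs usually end in a conserved stem-loop bound by SLBP in place of a poly(A) tail. Replication-independent histone genes are transcribed through the cell cycle and give ordinary polyadenylated mRNAs. The PAIP1 protein contacts the poly(A)-binding protein on mRNA tails and helps translation start. Oligo(dT) beads hold polyadenylated RNA, so most mature HIST transcripts are poorly captured in such libraries, and what is counted can be a small, polyadenylated or carried-over share of them.

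The stem-loop was searched in the GRCh38 genome within 150 bases after the stop codon of each annotated gene (GENCODE 44). A match was found in 53 of the 53 HIST members that could be matched by identifier, 26 to 66 bases after the stop (median 39), and in 1 of 10 replication-independent members. Among 20046 protein-coding genes, these members included, 73 (0.364%) had a match. Outside the members 19 genes matched, of which 18 have a current histone symbol. The windows below are shown because the 3′ end is what separates the 2 kinds of gene, and they cover the members on which the values further down turn. Capitals mark the 16-base stem-loop and lower case the next 14 bases.
HIST1H2BD, H2B, chr6:26158587-26158616 on the plus strand: GGCTCTTTTAAGAGCCacgcatgttttcaa
HIST1H2BG, H2B, chr6:26216204-26216233 on the minus strand: GGCTCTTTTCAGAGCCactcaagtctcaca
HIST1H2BK, H2B, chr6:27146352-27146381 on the minus strand: GGCTCTTTTAAGAGCCacttaaattatcga
HIST1H2AC, H2A, chr6:26124669-26124698 on the plus strand: GGCTCTTTTCAGAGCCcccctaccgtttca
HIST1H4E, H4, chr6:26205001-26205030 on the plus strand: GGCCCTTTTCAGGGCCgcccacagttttcc
HIST1H4J, H4, chr6:27824459-27824488 on the plus strand: GGCCCTTTTCAGGGCCaccctactttctca
HIST1H1E, H1, chr6:26157095-26157124 on the plus strand: GGCTCTTTTCAGAGCCacccaccgctctca
HIST1H1C, H1, chr6:26055730-26055759 on the minus strand: GGCTCTTTTCAGAGCCaccactgatctcaa
H2AFX, replication-independent H2A, chr11:119094884-119094913 on the minus strand: GGCCCTTTTAAGGGCCaccaccgccctcat
The form seen in HIST1H2BG, HIST1H2AC, HIST1H1E and HIST1H1C was the commonest, with 29 members, and 9 forms occurred among the HIST members. The only replication-independent member with a match, H2AFX, encodes the H2A variant that is phosphorylated at DNA breaks, and its annotation runs 1024 bases past the stem-loop to an end with a poly(A) signal. Some HIST genes were annotated with a distant end as well. The annotated end lay 14400 bases of genome past the stem-loop in HIST1H2AC and 12747 bases past it in HIST1H2BD, against 4 bases in HIST1H1C and 5 bases in HIST1H1E, HIST1H4E and HIST1H2BK.

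Promoters of 49 HIST members and 9 replication-independent members were present in RefSeq (GRCh38.p14, 250 bases before to 50 after the start). Motifs were searched on both strands, overlaps included: the TATA box with the letters TATAAA, the box named CCAAT after its letters, and the octamer ATTTGCAT. They were present in 63.3%, 83.7% and 46.9% of the HIST promoters, against 12%, 35.7% and 1.8% of 27305 promoters in the whole table. The octamer stood in 76.9% of H2A and 75% of H2B promoters and in none of the 9 H4 promoters, and CCAAT in 11.1% of H4 promoters and all promoters of the other 4 classes. The window listed for HIST1H3D was identical to that of HIST1H2AD, so the same letters were counted in both the H3 and H2A classes and for each gene in the HIST total. Windows of oppositely transcribed H2A and H2B neighbors overlapped as well. With both strands searched, the same site could be counted in both classes, so the H2A and H2B shares are not independent. Replication-independent promoters held the same motifs in 44.4%, 66.7% and 11.1% of cases. Below are the promoter of HIST1H2BD, the HIST member that passed the test described further on, and that of HIST1H2BG, whose window also covers the start of the oppositely transcribed HIST1H2AE 233 bases away. Capitals mark the motifs in either orientation, and a match is a description of letters, not of a bound factor.
HIST1H2BD, H2B, chr6:26157871-26158170 on the plus strand: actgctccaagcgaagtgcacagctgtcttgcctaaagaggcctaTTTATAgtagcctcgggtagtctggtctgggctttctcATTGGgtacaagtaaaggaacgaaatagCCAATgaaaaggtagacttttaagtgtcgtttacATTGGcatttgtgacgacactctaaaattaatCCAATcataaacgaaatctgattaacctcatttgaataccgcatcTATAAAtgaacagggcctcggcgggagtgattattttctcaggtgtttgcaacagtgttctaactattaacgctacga
HIST1H2BG, H2B, chr6:26216639-26216938 on the minus strand: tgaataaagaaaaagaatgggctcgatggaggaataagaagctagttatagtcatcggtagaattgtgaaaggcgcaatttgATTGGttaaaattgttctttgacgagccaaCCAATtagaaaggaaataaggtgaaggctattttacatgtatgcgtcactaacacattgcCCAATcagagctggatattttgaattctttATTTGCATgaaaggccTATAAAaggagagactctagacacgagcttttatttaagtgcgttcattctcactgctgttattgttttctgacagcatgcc
HIST1H2BD had TATA and CCAAT matches without an octamer, while HIST1H2BG had all 3 motifs.

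The libraries held 29313211 to 34659866 counted read pairs, so that 1 pair was worth 0.0286 to 0.0332 CPM (counts scaled to a common library size with TMM factors). PAIP1 itself had 8.29, 6.54 and 5.47 FPKM in siPAIP1 1, 2 and 3, against 26.83, 22.96 and 26.01 FPKM in Ctrl 1, 2 and 3. All siPAIP1 libraries were below all Ctrl libraries, and the siPAIP1 mean was 26.8% of the Ctrl mean (two-sided exact permutation p = 0.1, the smallest that 3 against 3 libraries allow). In siPAIP1 3, 7.05% of tested genes stood over 2-fold above the mean of siPAIP1 1 and 2, 15 HIST genes among them, so the main counts and calls are also given without that library. Albumin (ALB), a hepatocyte marker, was present at 1343, 1073 and 738 CPM in siPAIP1 and 1886, 1749 and 1745 CPM in Ctrl. Of 8 hepatocyte markers 6 were called lower (edgeR adjusted p under 0.05), where 6.2% of 15528 tested genes were. Of 8 listed markers of leukocytes, endothelium and fibroblasts 7 were in the table, the leukocyte marker PTPRC had a single read pair in all 6 libraries together, and the summed list lay between 3.59 and 6.04 CPM in siPAIP1 and between 4.25 and 5.15 CPM in Ctrl. Bulk RNA cannot tell fewer cells of a kind, such as cells in S phase, apart from less RNA per cell.

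The 2 kinds of histone gene differed widely in level. By FPKM, which divides by transcript length, the HIST members lay between 0 and 28.63 in any library, with a median over members of 0.937 in siPAIP1 and 0.423 in Ctrl. Replication-independent members lay between 18.75 and 355.28, with medians of 97.9 in siPAIP1 and 89.4 in Ctrl. H2AFZ, which encodes the variant H2A.Z found around promoters, was the most abundant at 326 ± 45.9 FPKM in siPAIP1 and 303 ± 33 in Ctrl (SD, n = 3 each). Next in Ctrl came H3F3B (157 ± 19.2 in siPAIP1 and 187 ± 11.7 in Ctrl), the linker histone gene H1F0 (160 ± 4.40 in siPAIP1 and 156 ± 2.92 in Ctrl) and H2AFX (119 ± 11.2 in siPAIP1 and 122.5 ± 3.45 in Ctrl). Below these came H3F3A (112 ± 14.3 in siPAIP1 and 90.0 ± 7.74 in Ctrl) and the linker gene H1FX (83.8 ± 1.78 in siPAIP1 and 88.9 ± 2.05 in Ctrl). The Ctrl means of H3F3A and H1FX differed by less than the Ctrl SD of either gene. The highest HIST members were HIST1H1C, a linker histone gene, at 27.3 ± 1.52 FPKM in siPAIP1 and 23.2 ± 3.07 in Ctrl, and HIST1H2BK at 21.1 ± 1.92 in siPAIP1 and 18.7 ± 1.90 in Ctrl. HIST1H1C and the replication-independent genes H2AFV and H2AFJ had Ctrl means that differed by less than the SD of HIST1H1C.

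The first comparison asked which histone genes differed between siPAIP1 and Ctrl. Of the 10 replication-independent members, all of which passed the filter on low counts, 2 were called higher and 0 lower by edgeR's quasi-likelihood (QL) test at a Benjamini-Hochberg adjusted p under 0.05, where 5.68% of 15528 tested genes were called higher and 6.2% lower. Of the 57 HIST members, 29 passed the filter, 1 was called higher and 0 lower. With unadjusted p under 0.05, 5 HIST members were above Ctrl and 1 below it, where 14.8% of tested genes were above and 13.8% below. DESeq2 called 2 higher and 1 lower, where it called 5.95% higher and 6.75% lower of the 14916 genes to which it gave an adjusted p. For the replication-independent members DESeq2 called 1 lower, H3F3B, which was also the 1 lower gene at an unadjusted p under 0.05. The siPAIP1 and Ctrl libraries did not overlap for 6 tested HIST members that were higher and 1 that was lower, where 19% and 17.6% of tested genes had no overlap in those directions. The 6 of 29 HIST members were thus close to the share among all tested genes.

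Of the replication-independent genes, H2AFY2 (chr10:70052544-70112282, plus strand, GRCh38 in GENCODE 44), which encodes a macroH2A variant associated with silent chromatin, changed most. It had 106.5, 100.1 and 92.8 CPM in siPAIP1 1, 2 and 3, against 69.2, 60.6 and 63.3 CPM in Ctrl 1, 2 and 3. The groups did not overlap, and the gene rose by 0.63 on the log2 scale (SE 0.0846, adjusted p = 0.00569, edgeR QL test). Without any 1 library the change stayed between 0.58 and 0.68 and was called each time. H2AFY, the paralog that encodes the other macroH2A, had 219, 216 and 187.5 CPM in siPAIP1 against 208, 194 and 197 CPM in Ctrl, and the groups overlapped (log2 fold change 0.06, SE 0.0836, adjusted p = 0.682, same test).

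H2AFJ (chr12:14774405-14778002, plus strand), an H2A variant gene of low abundance among these 10, had 24.7, 23.4 and 24.3 CPM in siPAIP1 1, 2 and 3, against 17.1, 13.6 and 18.5 CPM in Ctrl 1, 2 and 3. Every siPAIP1 library was above every Ctrl library, and the gene rose by 0.56 on the log2 scale (SE 0.118, adjusted p = 0.0253, edgeR QL test). The call was lost without any 1 library other than siPAIP1 3 (adjusted p 0.0534 to 0.0953 in the same test).

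H3F3A (chr1:226061851-226072019, plus strand) and H3F3B (chr17:75776434-75785893, minus strand) encode the same protein, the H3 variant placed outside replication, and their differences had opposite signs without passing the threshold. H3F3A had 405, 397 and 351 CPM in siPAIP1 1, 2 and 3, against 332, 287 and 326 CPM in Ctrl 1, 2 and 3 (log2 fold change 0.29, SE 0.0920, adjusted p = 0.088, edgeR QL test). H3F3B had 525, 520 and 461 CPM in siPAIP1, against 641, 573 and 616 CPM in Ctrl (-0.28, SE 0.0845, adjusted p = 0.0735, same test). Neither gene's groups overlapped, with siPAIP1 above Ctrl for H3F3A and below it for H3F3B. Without siPAIP1 3 both were called, H3F3A higher by 0.34 (adjusted p = 0.00368, edgeR) and H3F3B lower at -0.23 (adjusted p = 0.0392, edgeR).

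Their ratio was steadier than either level. H3F3A FPKM over H3F3B FPKM was 0.719, 0.711 and 0.708 in siPAIP1 1, 2 and 3, against 0.483, 0.467 and 0.493 in Ctrl 1, 2 and 3. The mean was 0.713 ± 0.00561 in siPAIP1 and 0.481 ± 0.0132 in Ctrl (SD, n = 3 each). This pair was singled out after its values were seen. With H3F3A above Ctrl and H3F3B below it in every siPAIP1 library, the ratio had to separate the groups. Its two-sided exact permutation p of 0.1, the smallest possible, was therefore fixed in advance and adds no support. Both genes have near-identical processed copies in the genome, so the split of uniquely mapped reads between gene and copies is uncertain.

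The other replication-independent members were not called. H2AFV, which encodes a second form of H2A.Z, had 118.5, 118.1 and 105.1 CPM in siPAIP1 against 131.8, 122.6 and 126.4 CPM in Ctrl, without overlap (log2 fold change -0.16, SE 0.0767, adjusted p = 0.224, edgeR). H2AFZ, H2AFX, H1F0 and H1FX had overlapping groups and log2 fold changes of 0.07, -0.07, 0.02 and -0.11. Their summed level with the rest of the 10 genes was 2536, 2471 and 2310 CPM in siPAIP1 and 2542, 2324 and 2450 CPM in Ctrl, with equal group means of 2439 CPM (SD 116 in siPAIP1 and 109 in Ctrl).

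**Figure D1:**
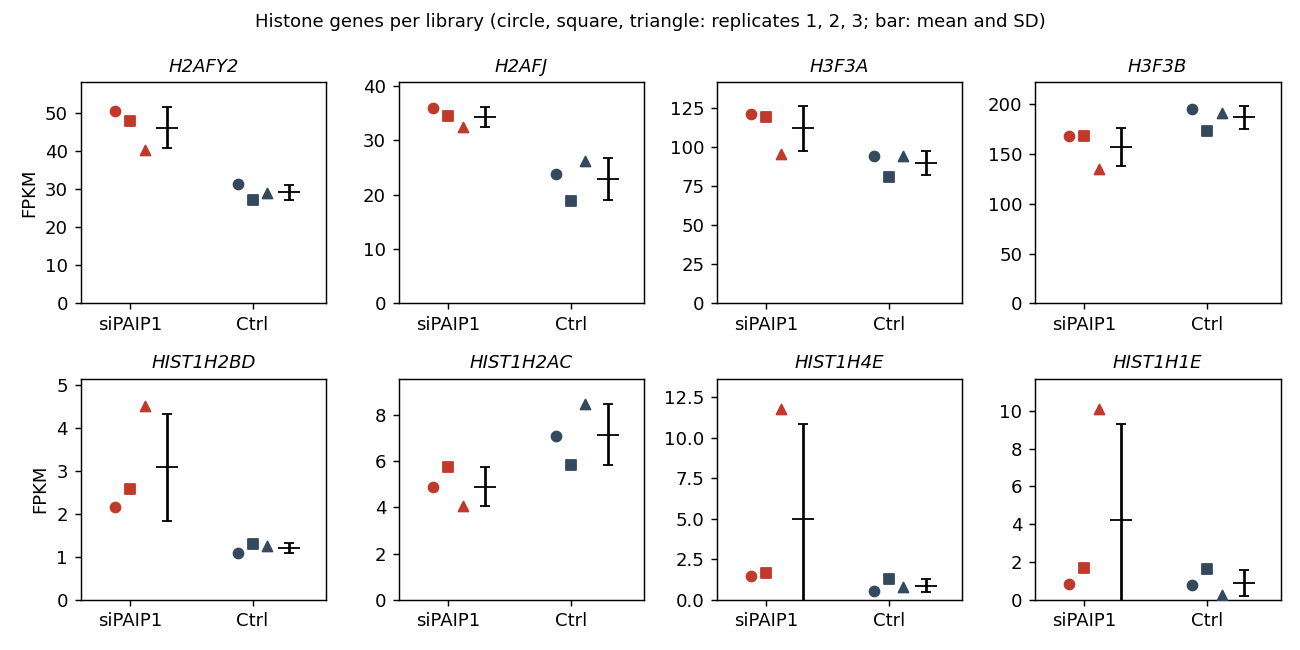
FPKM of 8 histone genes in each library (vertical axes, each from 0), siPAIP1 left in red and Ctrl right in blue, with symbols for replicates and bars for mean and SD (n = 3 each); the lower bars of HIST1H4E and HIST1H1E would pass below 0 and end at the axis. In the upper row the groups do not overlap, and in the lower row siPAIP1 3 lies far above the other libraries for HIST1H4E (11.76 FPKM) and HIST1H1E (10.09 FPKM).

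HIST1H2BD, an H2B gene on chromosome 6, was the HIST member called higher, and it also passed the study's fold threshold of 2, as 1.11% of tested genes did upward and 1.1% downward. It had 2.01, 2.37 and 4.58 CPM in siPAIP1 1, 2 and 3, against 1.05, 1.27 and 1.18 CPM in Ctrl 1, 2 and 3, which came from 69, 83 and 138 read pairs in siPAIP1 and 35, 42 and 36 in Ctrl. All siPAIP1 libraries were above all Ctrl libraries, siPAIP1 3 the most. The log2 fold change was 1.35 (SE 0.329, adjusted p = 0.0398, edgeR QL test). Without siPAIP1 3 it was 0.91 and still called (adjusted p = 0.00591), whereas the call was lost without siPAIP1 2 or any 1 Ctrl library (adjusted p 0.0665 to 0.154, same test).

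HIST1H2AC, the H2A gene with the highest FPKM of its class, had lower values in siPAIP1. It had 8.57, 10.1 and 7.83 CPM in siPAIP1 1, 2 and 3, against 13.2, 10.9 and 15.4 CPM in Ctrl 1, 2 and 3. Here siPAIP1 3 was the lowest library and the groups did not overlap, with a log2 fold change of -0.58 (SE 0.153, adjusted p = 0.0512, edgeR QL test). It was called lower without siPAIP1 3 (-0.50, adjusted p = 0.0105, edgeR). HIST1H2BC starts 219 bases from HIST1H2AC in the opposite direction and had overlapping groups, with 1.43, 1.63 and 2.72 CPM in siPAIP1 against 2.19, 1.30 and 1.51 CPM in Ctrl (log2 fold change 0.20, SE 0.309). In the pair of HIST1H2BG and HIST1H2AE, both genes were highest in siPAIP1 3. HIST1H2BG had 0.496, 0.972 and 3.09 CPM in siPAIP1 against 0.629, 0.513 and 0.886 CPM in Ctrl, with overlap (log2 fold change 1.15, SE 0.637, adjusted p = 0.271, edgeR), and the value was 0.12 without siPAIP1 3. HIST1H2AE had 0.991, 1.23 and 2.59 CPM in siPAIP1 against 0.898, 0.814 and 0.788 CPM in Ctrl, without overlap (0.93, SE 0.376, adjusted p = 0.156, edgeR), and the value was 0.41 without siPAIP1 3.

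The second pattern concerned single libraries. Among the 29 tested HIST members, the median log2 ratio of each library to the Ctrl mean (CPM + 0.05) was -0.02, 0.42 and 1.42 in siPAIP1 1, 2 and 3, against -0.10, -0.12 and 0.04 in Ctrl 1, 2 and 3. The same medians for replication-independent members were 0.08, 0.04 and -0.04 in siPAIP1, and for all tested genes 0.00, 0.00 and 0.03. Thus HIST members lay highest in siPAIP1 3, somewhat above Ctrl in siPAIP1 2, and near Ctrl in siPAIP1 1. Of the 57 HIST members, 40 had their highest CPM in siPAIP1 3, where 32.7% of tested genes did. Of these 40, 17 were among the 28 members under the filter, which the share over tested genes does not cover. Over tested members only, 15 of 29 were there over 2-fold above the mean of siPAIP1 1 and 2, where 7.05% of tested genes were. Over all 57 members, scarce ones included, 31 exceeded that 2-fold line. The median fitted log2 fold change was 0.81 for the tested HIST members, 0.04 for replication-independent members and 0.03 for all tested genes. Of the 29 tested HIST members, 7 had fewer than 3 Ctrl libraries above the filter's CPM limit, and with a filter of 1 CPM in 3 libraries the HIST median was 0.38. Without siPAIP1 3 the HIST median was 0.22 over 30 members, of which 24 were positive and 6 negative, and 1 member was called higher and 1 lower, where 11.8% and 12.4% of 15732 genes were. With no filter on low counts, 5 HIST members were called higher and 1 lower by edgeR, where 3.85% and 3.25% of 30987 genes were.

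**Figure D2:**
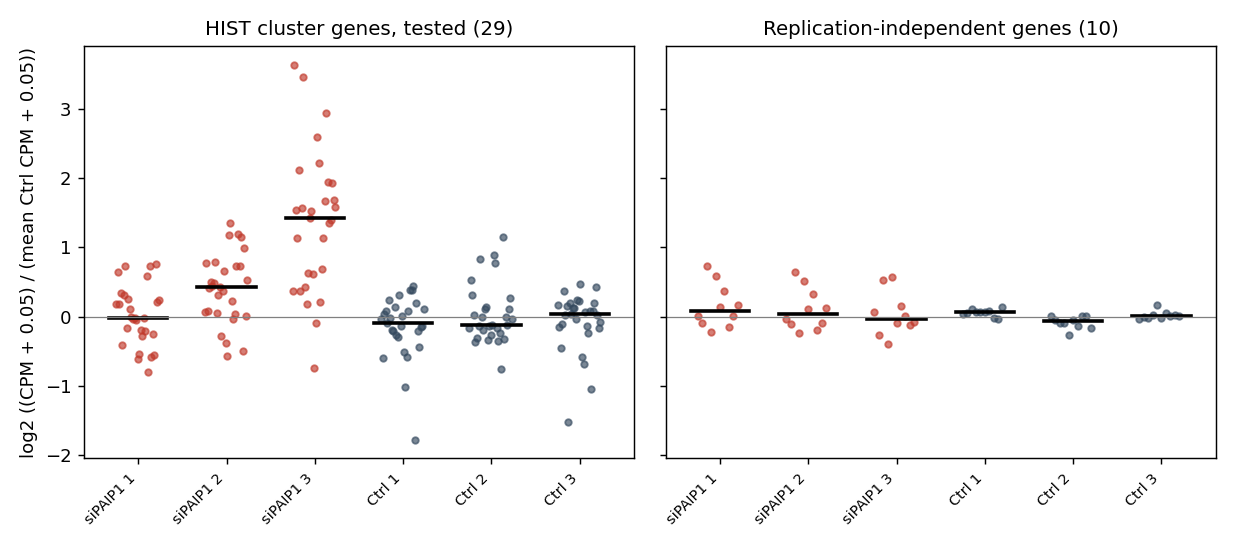
Log2 ratio of CPM + 0.05 in each library to the Ctrl mean (vertical axis) for 29 tested HIST cluster genes (left) and 10 replication-independent genes (right), 1 point per gene, with black bars for medians. The HIST median is 1.42 in siPAIP1 3 and between -0.12 and 0.42 in the other libraries, while the medians at right lie between -0.07 and 0.08.

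Summed over the 57 HIST members, the level was 67.7, 76.3 and 117.2 CPM in siPAIP1 1, 2 and 3, against 67.6, 63.0 and 72.8 CPM in Ctrl 1, 2 and 3. The means were 87.1 ± 26.4 CPM in siPAIP1 and 67.8 ± 4.89 CPM in Ctrl (SD, n = 3 each), a difference smaller than the siPAIP1 spread. As a share of the summed replication-independent level, this was 2.67%, 3.09% and 5.07% in siPAIP1 and 2.66%, 2.71% and 2.97% in Ctrl. The classes differed in how far siPAIP1 3 stood above the Ctrl mean. The ratio was 3.34 for H4 (4.81, 5.38 and 14.4 CPM in siPAIP1, against 3.56, 4.68 and 4.66 CPM in Ctrl) and 2.04 for H2B (19.9, 23.8 and 39.7 CPM in siPAIP1, against 19.4, 18.9 and 20.1 CPM in Ctrl). It was 1.70 for H1, 1.51 for H3 and 1.15 for H2A.

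**Figure D3:**
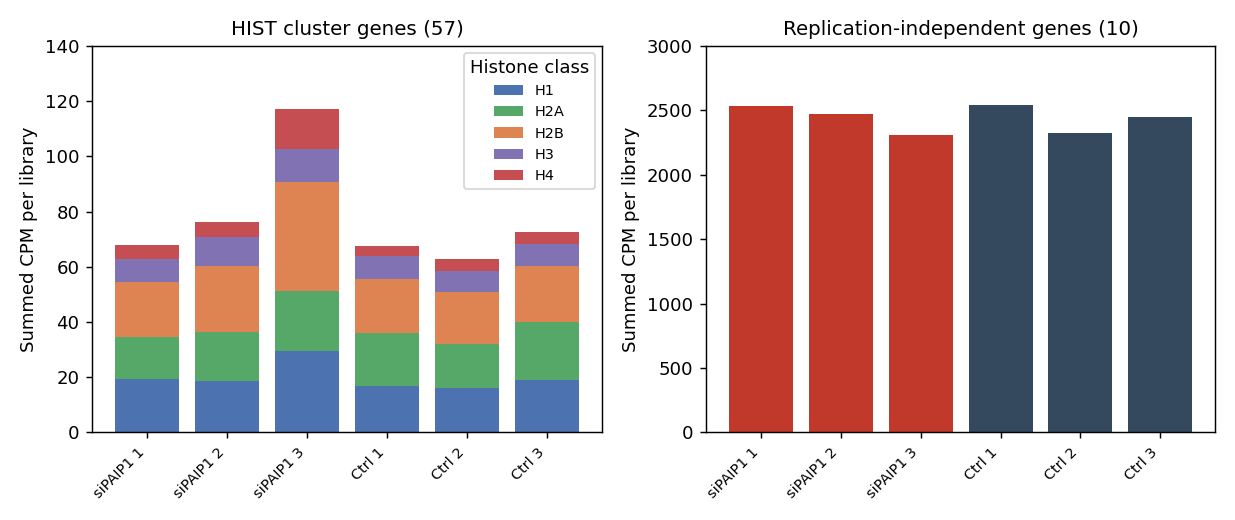
Summed CPM per library (vertical axes from 0, on different scales) of the 57 HIST cluster genes stacked by histone class (left) and of the 10 replication-independent genes (right), siPAIP1 libraries left of Ctrl libraries. The HIST sum reaches 117.2 CPM in siPAIP1 3 and lies between 63.0 and 76.3 CPM in the other 5, while the sums at right lie between 2310 and 2542 CPM.

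Individual members with high siPAIP1 3 values were mostly scarce. HIST1H4E, an H4 gene, had 0.496, 0.543 and 4.28 CPM in siPAIP1 1, 2 and 3, against 0.180, 0.452 and 0.263 CPM in Ctrl (17, 19 and 129 read pairs in siPAIP1 and 6, 15 and 8 in Ctrl). Its groups did not overlap, but the spread within siPAIP1 was large (log2 fold change 2.54, SE 0.940, adjusted p = 0.128, edgeR QL test). Without siPAIP1 3 its log2 fold change was 0.79 (adjusted p = 0.205, edgeR). HIST1H1E, a linker histone gene, had 0.583, 1.17 and 7.76 CPM in siPAIP1, against 0.569, 1.21 and 0.197 CPM in Ctrl, with overlap (2.24, SE 1.01, adjusted p = 0.193, same test, and 0.40 without siPAIP1 3). HIST1H3B, an H3 gene, had 0.233, 0.829 and 1.56 CPM in siPAIP1, against 0.180, 0.543 and 0.164 CPM in Ctrl, also with overlap (1.53, SE 0.723, adjusted p = 0.211, same test, and 0.83 to 2.30 without any 1 library). HIST4H4, an H4 gene, had 8, 12 and 38 read pairs in siPAIP1 1, 2 and 3, against 0, 11 and 1 in Ctrl (log2 fold change 2.25, SE 1.04, adjusted p = 0.203, edgeR), and leaving out any 1 library moved the value between 1.20 and 4.95. HIST1H4B, also an H4 gene, had 5, 16 and 39 read pairs in siPAIP1, against 2, 12 and 3 in Ctrl (1.81, SE 0.883, adjusted p = 0.224, edgeR), and the same values ran from 0.78 to 2.92. In HIST4H4 and HIST1H4B siPAIP1 3 was the highest library, and Ctrl 2 lay above siPAIP1 1. HIST2H4B was the H4 gene with a negative value, -0.42 (SE 0.358, adjusted p = 0.467, edgeR). Many H2A, H2B and H4 genes are near-identical in sequence, HIST2H2AA3 and HIST2H2AA4 most of all, so the share of reads that each could receive as unique is uncertain.

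The most abundant members of the H1, H2B, H3 and H4 classes varied less. That of the H2A class, HIST1H2AC, had lower values in siPAIP1, as given above. HIST1H1C had 18.8, 17.4 and 21.4 CPM in siPAIP1 1, 2 and 3, against 16.2, 14.8 and 18.7 CPM in Ctrl (log2 fold change 0.21, SE 0.119, adjusted p = 0.271, edgeR). HIST1H2BK had 7.84, 9.29 and 9.19 CPM in siPAIP1 against 8.39, 7.09 and 8.34 CPM in Ctrl, and HIST1H3H 7.23, 8.32 and 7.60 CPM in siPAIP1 against 7.40, 5.82 and 6.86 CPM in Ctrl. For both genes the groups overlapped and siPAIP1 2, not siPAIP1 3, was the highest library. HIST1H4J, the most abundant H4 gene, had 2.57, 2.23 and 2.92 CPM in siPAIP1 against 1.86, 2.14 and 2.46 CPM in Ctrl, again with overlap. HIST2H2AC, the next H2A gene by FPKM after HIST1H2AC, had 1.98, 2.17 and 2.06 CPM in siPAIP1 against 1.89, 1.27 and 1.61 CPM in Ctrl. The groups did not overlap, and the gene was not called (log2 fold change 0.38, SE 0.194, adjusted p = 0.236, edgeR).

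The sums show the same division by level. The 6 HIST members with a Ctrl mean of at least 3 FPKM, a limit set after the values were seen, summed to 47.0, 49.5 and 51.0 CPM in siPAIP1 1, 2 and 3, against 48.9, 42.0 and 53.4 CPM in Ctrl. The other 51 summed to 20.7, 26.9 and 66.2 CPM in siPAIP1, against 18.7, 21.0 and 19.4 CPM in Ctrl. In siPAIP1 3 the scarce genes thus stood at 3.36 times the Ctrl mean and the abundant ones at 1.06 times. The scarce genes made up 56.5% of HIST CPM in siPAIP1 3, against 26.7% to 33.3% in the Ctrl libraries. The limit used the same Ctrl values that serve as the denominator. Over the whole table, 25558 genes had a count in siPAIP1 3, against 23067 to 24254 in the other libraries. Equally scarce genes outside the histones were not examined, so the division by level may not be particular to HIST genes. The 28 members under the filter had 1 to 87 read pairs over all 6 libraries (median 11.5), together 60, 74 and 299 pairs in siPAIP1 and 59, 84 and 55 in Ctrl. Of these 28, 17 were highest in siPAIP1 3 and 5 had no read pair in Ctrl.

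**Figure D4:**
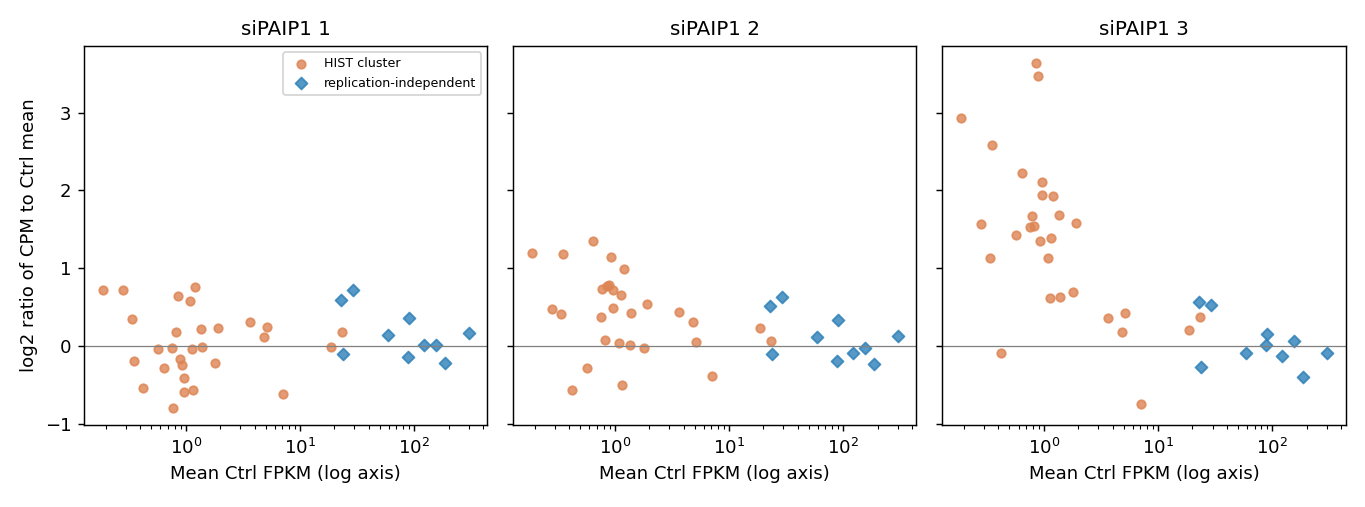
Log2 ratio of CPM + 0.05 to the Ctrl mean (vertical axis) against mean Ctrl FPKM (horizontal axis, log scale) for tested histone genes, 1 panel per siPAIP1 library, with circles for HIST cluster genes and diamonds for replication-independent genes. In siPAIP1 3 the high ratios, up to 3.64 for HIST1H4E, belong to HIST genes under 3 FPKM, and HIST genes above 3 FPKM lie between -0.75 and 0.43.

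The annotated 3′ end divided the HIST members less sharply. Of the 12 whose annotation ran at least 100 bases past the stem-loop, 9 were highest in siPAIP1 3, and the 7 tested had a median log2 ratio of 0.69 there. Of the other 41, 29 were highest in siPAIP1 3, and the 20 tested had a median of 1.56. HIST1H1C and HIST1H2BK belong to this second kind and HIST1H2AC to the first. The ranges overlapped, from -0.75 to 1.93 for the first kind and from -0.09 to 3.64 for the second, and no test was made. The split used the annotation of the stem-loop search, and exon lengths from counts and FPKM did not always match it. HIST1H2AG, HIST2H4B, HIST1H3G and HIST1H4I, of the second kind, had such lengths of 2257, 1129, 2735 and 1360 bases. The annotation gave them transcripts of 493, 396, 496 and 397 bases. HIST1H3E and HIST1H2BE, of the first kind, had such lengths of 409 and 406 bases. The split may thus miss the ends used in counting.

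Some other RNAs that lack a poly(A) tail, the most abundant of those listed, were also highest in siPAIP1 3. RN7SL1, the RNA of the signal recognition particle, had 8.16, 27.1 and 153.5 CPM in siPAIP1 1, 2 and 3, against 7.16, 11.1 and 7.09 CPM in Ctrl. RN7SK, which holds the elongation factor P-TEFb inactive, had 3.99, 17.0 and 57.4 CPM in siPAIP1 against 4.97, 5.55 and 3.12 CPM in Ctrl. RMRP and RPPH1, the RNAs of RNase MRP and RNase P, had 22.7 and 21.4 CPM in siPAIP1 3 and at most 3.47 CPM in Ctrl. All 4 were highest in siPAIP1 3 and next highest in siPAIP1 2, the order also seen in the HIST median. Of 20 such RNAs listed, 16 were in the table, of which 9 were highest in siPAIP1 3, 6 in siPAIP1 2 and 1 in Ctrl 2. The 5 that passed the filter were all highest in siPAIP1 3, 0 of them were called by edgeR (adjusted p 0.0687 to 0.118), all 5 had an unadjusted p under 0.05 in the higher direction, where 14.8% of tested genes did, and DESeq2 called 1. The other 11 had 1 to 60 read pairs over all 6 libraries, and RNU4-1, a spliceosomal RNA, had 2, 34 and 10 in siPAIP1 1, 2 and 3, against 7, 4 and 3 in Ctrl. The list summed to 18.3, 69.9 and 300.7 CPM in siPAIP1, against 17.9, 26.1 and 15 CPM in Ctrl. All 244 genes typed as snRNA summed to 4.49, 8.04 and 10.95 CPM in siPAIP1 against 4.91, 7.84 and 5.28 CPM in Ctrl, and all 287 typed as snoRNA to 52, 60.2 and 86.2 CPM in siPAIP1 against 52.6, 60.0 and 50.8 CPM in Ctrl. For both types siPAIP1 3 was highest, and siPAIP1 2 lay at the level of Ctrl 2. MALAT1, a nuclear RNA whose end is protected by a triple helix, had 78.0, 100.8 and 1470 CPM in siPAIP1 against 100.6, 195.3 and 85.4 CPM in Ctrl, so it stood apart in siPAIP1 3 only. The part of these RNAs in the HIST values was not tested.

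**Figure D5:**
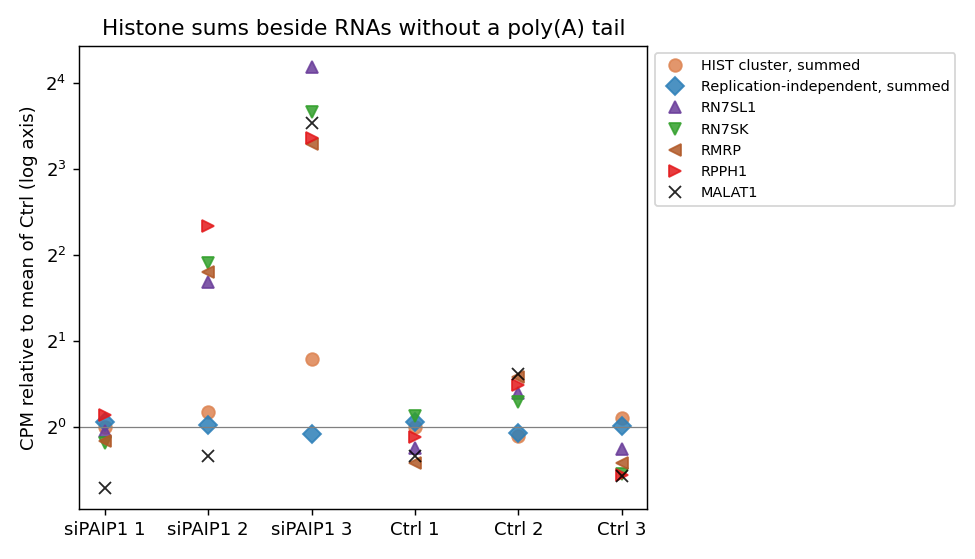
CPM relative to the mean of Ctrl (vertical axis, log scale) per library for the summed HIST cluster genes, the summed replication-independent genes, 4 small RNAs without a poly(A) tail and MALAT1. The HIST sum stands at 1.73 times the Ctrl mean in siPAIP1 3, below the small RNAs and MALAT1 in the same library, and the replication-independent sum at 0.947 times.

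Genes that supply, process and deposit histones were counted from lists. Of 22 factors of histone mRNA 3′ end processing, 0 were called by edgeR or DESeq2, and the median log2 fold change was 0.00. With unadjusted edgeR p under 0.05, 4 had positive and 2 negative changes, where 14.8% and 13.8% of tested genes did. SLBP, the stem-loop binding protein, had 72.9, 73.1 and 61.8 CPM in siPAIP1 against 84.2, 76.8 and 78.8 CPM in Ctrl, without overlap (-0.21, SE 0.0887, adjusted p = 0.175, edgeR), and was named for its role. FIP1L1, a polyadenylation factor, had 37.2, 37.4 and 39.3 CPM in siPAIP1 against 31.4, 31.1 and 32.6 CPM in Ctrl (0.26, SE 0.0691, adjusted p = 0.0509, edgeR). Of 14 genes of histone gene transcription, 0 were called by either tool and 2 were higher at an unadjusted p under 0.05 (14.8% over all tested genes), CCNE1, the cyclin that drives S phase entry, having the lowest adjusted p (0.26, SE 0.0871, adjusted p = 0.0943, edgeR).

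Of 16 genes of histone mRNA translation and decay, 1 was called higher and 0 lower, where 5.68% and 6.2% of tested genes were, so the count was near that over all genes. With unadjusted p under 0.05 there were 2 in the first direction and 0 in the second, where 14.8% and 13.8% of tested genes were. The called gene was MIF4GD, whose product links SLBP to the translation machinery. It had 25.6, 25.8 and 24.7 CPM in siPAIP1 1, 2 and 3, against 19.9, 19.1 and 17.0 CPM in Ctrl 1, 2 and 3, and rose by 0.44 (SE 0.0840, adjusted p = 0.0174, edgeR QL test). The call was lost without any 1 library other than siPAIP1 3 (adjusted p 0.0535 to 0.0781, edgeR). In this gene siPAIP1 3 did not stand apart from siPAIP1 1 and 2. EIF4G1, the initiation factor scaffold that PAIP1 contacts, did stand apart there, with 345, 335 and 901 CPM in siPAIP1 against 320, 366 and 324 CPM in Ctrl (0.65, SE 0.364, adjusted p = 0.279, edgeR).

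Among 38 genes of S phase and DNA replication, 1 was called higher and 0 lower, where 5.68% and 6.2% of tested genes were, and the median log2 fold change was 0.02. With unadjusted p under 0.05 there were 2 and 0, against 14.8% and 13.8% of tested genes. The called gene was POLA2, a subunit of the polymerase that starts DNA strands, with 21.95, 21.4 and 21.4 CPM in siPAIP1 against 16.3, 18.8 and 16.6 CPM in Ctrl (0.33, SE 0.0832, adjusted p = 0.0461, edgeR). Without any 1 library other than siPAIP1 3 it was not called (adjusted p 0.0574 to 0.185, edgeR), and DESeq2 called 0 genes of that list in either direction. Per library the median log2 ratio of the list to the Ctrl mean was 0.01, -0.03 and -0.07 in siPAIP1 1, 2 and 3. Of the 38 genes, 1 stood in siPAIP1 3 over 2-fold above the mean of siPAIP1 1 and 2, where 7.05% of tested genes did. This was POLE, the catalytic subunit of a replicative polymerase, with 46.0, 46.2 and 126 CPM in siPAIP1 1, 2 and 3, against 43.7, 53.2 and 46.1 CPM in Ctrl (0.61, SE 0.379, adjusted p = 0.322, edgeR).

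Histone chaperones carry histones to and from DNA. Of 30 such genes, 2 were called lower and 0 higher, a count near the 6.2% of tested genes called lower. At an unadjusted p under 0.05 there were 3 in each direction (14.8% and 13.8% of tested genes), and DESeq2 called 3 lower and 0 higher, against 6.75% and 5.95% of its genes. NAP1L1, which escorts H2A and H2B, had 342.5, 325 and 278 CPM in siPAIP1 1, 2 and 3, against 481, 448 and 429 CPM in Ctrl 1, 2 and 3, and fell by 0.52 (SE 0.0978, adjusted p = 0.0165, edgeR QL test). SET, a relative of it, had 336, 326 and 282 CPM in siPAIP1 against 440, 406 and 412 CPM in Ctrl and fell by 0.42 (SE 0.0884, adjusted p = 0.0257, same test). Both genes were lowest in siPAIP1 3, and neither had overlapping groups. Without siPAIP1 3 both were still called (NAP1L1 -0.44, adjusted p = 0.000471, and SET -0.35, adjusted p = 0.00228, edgeR), but without siPAIP1 2 or any 1 Ctrl library neither was (adjusted p 0.0586 to 0.117). CENPA, the H3 variant of centromeres, was the only other histone variant gene tested, with 40.8, 39.2 and 36.8 CPM in siPAIP1 against 39.1, 36.0 and 37.7 CPM in Ctrl and overlapping groups (0.05, SE 0.0761, adjusted p = 0.688, edgeR).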

How the data were processed

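Reads were cleaned with FASTX-Toolkit and aligned to GRCh38 by TopHat2, and the authors kept pairs that mapped uniquely; the deposited count table holds raw counts per gene, with no normalization. The deposited FPKM values rest on the same unique alignments, divided by exon length and by mapped fragments of the library. Not given in the sources used here were the counter, its strand setting and the gene annotation, so overlapping or antisense genes cannot be separated with certainty. Labels gave the groups, and 0 columns belonged to no sample.

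Counts were scaled by TMM in edgeR 4.0.16 (R 4.3.3). The filter on low counts (filterByExpr defaults, here about 0.296 CPM in 3 libraries) kept 15528 of 30987 genes, and the groups were compared by glmQLFit and glmQLFTest with group as the only term and Benjamini-Hochberg adjustment over all tested genes. A gene was called at an adjusted p under 0.05, and the study's threshold adds a fold of 2. The p-values measure the spread between these 6 libraries. Library ratios used CPM + 0.05. Totals of 29313211 to 34659866 pairs set the depth, and members with few pairs are imprecise. Other tools were limma 3.58.1, DESeq2 1.42.0, Python 3.11.15 and matplotlib 3.10.9. The model script was tested on simulated data.

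Stem-loops were searched by name of the motif in the GRCh38 genome with GENCODE 44, and 4 HIST members had no identifier there. Members and lists were chosen with earlier results of these data known. Named members are the tested replication-independent genes, called HIST genes, and in each class up to 4 with the highest mean FPKM and up to 4 with the largest log2 fold change; named list genes are up to 4 with the lowest adjusted p. POLE and RNU4-1 were named after their values were seen. Alternatives covered scaling, filters, tools, units, a replicate block, gene length and left-out libraries.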

Additional observations from a re-analysis of the deposited data

How the results depend on the processing

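Of 563 values of named members under alternatives, 533 kept their side of the threshold. A call was gained by 19 in 8 genes and lost by 11 in 2 genes (HIST1H2BD and H2AFJ), and 0 calls reversed. Small changes that were not called could switch sign. Without any 1 library the lowest log2 fold change was -0.128 for HIST1H2BC, -0.013 for H1F0 and -0.009 for H2AFZ, all positive as reported. The HIST members called higher were 1 as reported, 5 with no filter on low counts, 0 with a replicate block with or without the gene-length trend removed, 2 by DESeq2, 2 without siPAIP1 3 and Ctrl 2 together (those with the largest multiply mapped shares), and 0 to 2 without any 1 library. HIST members called lower were 0 as reported and 1, HIST1H2AC, with RLE factors, no filter, a filter of 1 CPM in 3 libraries, the gene-length trend removed, DESeq2 or those 2 libraries left out, and 0 to 1 without any 1 library. Replication-independent members called higher were 2, with 0 at a 2-fold minimum and 1 to 3 without any 1 library; those called lower were 0, with 1 by DESeq2, 2 without siPAIP1 3 and Ctrl 2, and 0 to 1 without any 1 library.

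Over all tested genes, 882 were called higher and 963 lower. Without siPAIP1 3 these were 1857 and 1952, without siPAIP1 3 and Ctrl 2 they were 2363 and 2552, and the ranges without any 1 library were 187 to 1857 and 269 to 1952. Limma-trend on log2(FPKM + 0.1) and log2(FPKM + 1) called 607 and 588 lower, and a 2-fold minimum left 173 higher and 171 lower. With the replicate number as a block the calls were 366 higher and 459 lower, and 486 higher with the gene-length trend also removed. Libraries with the same number shared only a number (correlations of deviations 0.26, -0.28 and -0.15), and not every library correlated best with its own number. The median log2 fold change of tested HIST members ran from 0.22 to 1.08 without any 1 library, the lowest without siPAIP1 3, and was 0.38 with the filter of 1 CPM; the summed HIST ratio of siPAIP1 to Ctrl ran from 1.06 to 1.42. The cause of these shifts was not tested. Depth limits the 28 HIST members under the filter.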
